A study of Mus musculus with 25 samples.

Results

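Sorafenib was given on top of caffeine to mice with carcinogen-exposed livers, and their liver RNA was set against that of mice given caffeine alone. The comparison holds the 5 livers labelled DEN_CAF_SOR and the 5 labelled DEN_CAF, 10 of the 25 libraries of the study. Per the labels' protocols, all were male C3H/HeJ mice, a strain prone to liver cancer, received at 5 weeks of age. Both groups had diethylnitrosamine (DEN), an alkylating liver carcinogen, injected at 25 mg/kg 2 times a week in 5 cycles of 3 weeks with a week of rest after each. After a further month without treatment, DEN_CAF_SOR mice were gavaged for 3 weeks with caffeine at 50 mg/kg 3 times a week and with sorafenib at 30 mg/kg 2 times a week. DEN_CAF mice had the same caffeine, and mice not given a drug had its vehicle (corn oil with 2% DMSO for sorafenib, water for caffeine). Sorafenib without caffeine (4 DEN_SOR livers against 6 DEN livers, which had the carcinogen and vehicles) is set beside it where the difference between the 2 settings was tested. Protocol groups held 6 animals. The labels do not say whether a piece of liver held tumour.

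Sorafenib is an oral kinase inhibitor used against liver cancer. It blocks the RAF kinases, which pass growth signals to MEK and ERK, and receptors that vessels and their supporting cells use, the VEGF and PDGF receptors, along with KIT, FLT3 and RET. Caffeine blocks adenosine receptors and, at higher levels, phosphodiesterases, and hepatocytes break it down mainly with Cyp1a2. Hepatocytes oxidise sorafenib with CYP3A enzymes and join it to glucuronic acid with UGT1A9 in humans.

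Levels are given as FPKM, fragments scaled to gene length and library size, from whole reads recovered from the deposited tables and scaled together. Assigned reads ran from 17978389 to 21992613 in DEN_CAF_SOR and from 17070231 to 19859763 in DEN_CAF. The liver label held in both groups: Alb, serum albumin, was at 23761, 24975, 25251, 18473 and 29880.0 FPKM in DEN_CAF_SOR 1 to 5, against 30277, 20608, 17529, 18873 and 18177 FPKM in DEN_CAF 1 to 5. Defining markers of muscle (Ckm, Acta1), of exocrine pancreas (Pnlip, Amy2a5) and of fat (Adipoq) had group means under 1 FPKM. The summed fat cell list ran from 84.4 to 1439.6 FPKM in DEN_CAF_SOR and from 97.4 to 762 FPKM in DEN_CAF, with most of it from Car3, a carbonic anhydrase that hepatocytes also make (means 798 and 484 FPKM). The summed exocrine pancreas list ran from 6.74 to 12.6 FPKM in DEN_CAF_SOR and from 3.92 to 11.1 FPKM in DEN_CAF, mostly from the elastase gene Cela1. Their part in the other differences was not tested. Each library is from a separate mouse by its title, so p-values weigh differences against the spread between mice, and the 10 livers carried male expression, with Ddx3y, a Y-linked gene, between 11.7 and 17.1 FPKM in DEN_CAF_SOR and between 12.6 and 14.4 FPKM in DEN_CAF. Among livers without caffeine DEN 4 stood apart, with Ddx3y at 1.36 FPKM and Alb at 61873 FPKM.

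1 liver stood apart by its clock genes, the daily oscillator of liver cells. Dbp, an output factor of the clock, was at 7.96, 5.34, 71.2, 26.7 and 1.398 FPKM in DEN_CAF_SOR 1 to 5, against 2.21, 2.71, 32.7, 34.8 and 7.62 FPKM in DEN_CAF 1 to 5. Ciart, a repressor within the clock, was at 0.461, 0.431, 25.9, 4.05 and 0.469 FPKM in DEN_CAF_SOR 1 to 5, against 0.5497, 0.377, 0.384, 0.661 and 0.402 FPKM in DEN_CAF 1 to 5. Arntl, the activator of the clock (also called Bmal1), was at 3.25, 3.76, 0.0646, 2.04 and 5.25 FPKM in DEN_CAF_SOR 1 to 5, against 3.67, 4.63, 2.41, 2.96 and 4.004 FPKM in DEN_CAF 1 to 5. DEN_CAF_SOR 3 thus held the highest levels of Dbp and Ciart and the lowest of Arntl, with DEN_CAF_SOR 4 second for Ciart, while Dbp was also above 30 FPKM in DEN_CAF 3 and 4. Per1, a repressor that light and stress signals also switch on, was at 2.14, 0.873, 18.6, 3.38 and 3.08 FPKM in DEN_CAF_SOR 1 to 5, against 4.79, 1.23, 1.02, 1.04 and 1.06 FPKM in DEN_CAF 1 to 5. Across the 21 tested clock genes 12 of 21 differences were positive (median 0.09), and without DEN_CAF_SOR 3 11 of 21 were (median 0.03). The labels give the hour of dosing but not of collection. Several results that rest on DEN_CAF_SOR 3 are given with and without it, and the main ones that use DEN also without DEN 4. For others, such as Pklr, Fasn, Por and Hjv, no difference without DEN_CAF_SOR 3 is given.

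**Figure D1:**
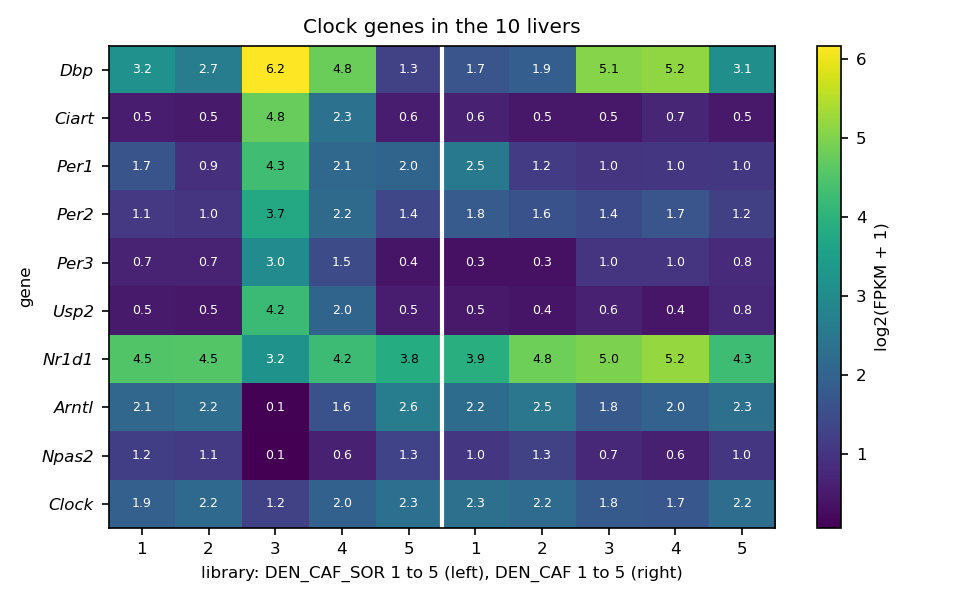
Levels of 10 clock genes in each liver, as log2(FPKM + 1) written in the cells and shown by colour, with the 5 DEN_CAF_SOR livers left of the 5 DEN_CAF livers. DEN_CAF_SOR 3 has the highest Dbp, Ciart, Per1, Per2, Per3 and Usp2 and the lowest Arntl and Npas2 of the 10.

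No gene passed the test when sorafenib was added to caffeine. Of 12470 genes tested with limma, 0 (0%) had an adjusted p under 0.05, and the lowest adjusted p was 0.999. An unadjusted p under 0.05 was found for 339 genes, 2.72% of those tested, with 124 higher (0.994%) and 215 lower (1.72%) in DEN_CAF_SOR. The 5 livers of one group lay wholly above or below the 5 of the other for 89 genes (0.714%), 43 higher (0.345%) and 46 lower (0.369%). edgeR's quasi-likelihood test on the recovered reads also called 0 genes (0%), with 388 at an unadjusted p under 0.05 (3.11%). DESeq2 called 3 of 12462 genes (0.0241%), and without DEN_CAF_SOR 3 it called 0, with 262 at an unadjusted p under 0.05. limma without that liver also called 0, with 193 at an unadjusted p under 0.05. Of 1111 genes in 59 lists 911 were tested, and limma called none of them.

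The differences were small for most genes. The log2 difference lay between -0.5 and 0.5 for 96.2% of genes, 35 genes were over 1 and 29 under -1, and the median was 0.03. It was positive for 56.5% of all genes tested. Counts of positive list members in DEN_CAF_SOR against DEN_CAF are to be read beside that share. The 95% confidence interval of a gene's difference reached a median of 0.40 to either side on the log2 scale. For 87.9% of genes the whole interval lay between -1 and 1 on the log2(FPKM + 1) scale. On simulated reads with the spread of these libraries and 12609 genes tested, limma found 9.09% of changes planted at 1.5-fold, 56.7% of those at 2-fold and 97% of those at 4-fold in DEN_CAF_SOR. The changes were planted only in genes with high read counts, and genes were drawn independently of each other. Recovery was not simulated for genes with few reads or for shifts that several livers share. Sorafenib without caffeine gave 0 called genes too (0%), with 773 at an unadjusted p under 0.05 (6.2%), 362 higher (2.9%) and 411 lower (3.3%) in DEN_SOR than in DEN, and DESeq2 called 28. The test of the difference between the 2 sorafenib differences called 0 genes (0%), with 516 at an unadjusted p under 0.05 (4.14%), 244 of them more positive with caffeine (1.96%) and 272 more negative (2.18%), and DESeq2 called 8.

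**Figure D2:**
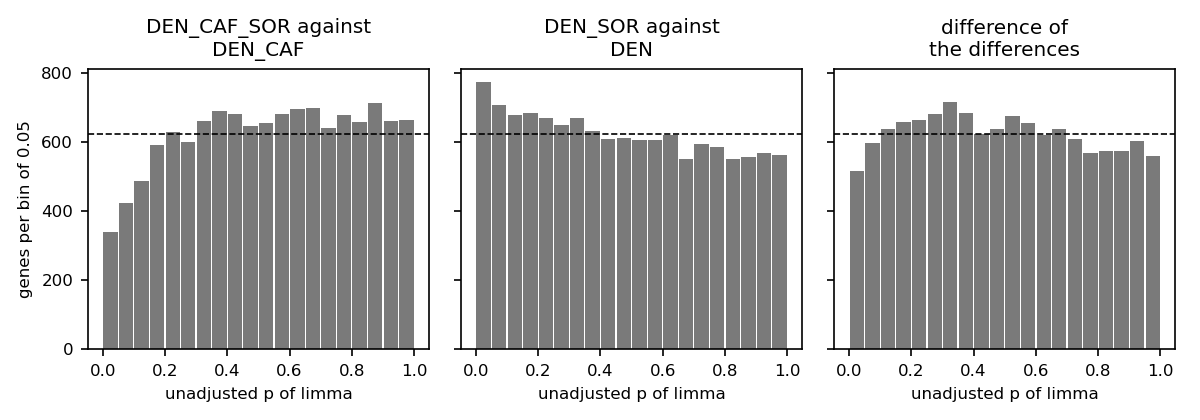
Number of genes by unadjusted p of limma in bins of 0.05, for DEN_CAF_SOR against DEN_CAF, DEN_SOR against DEN and the difference between these differences; the dashed line is the mean of the 20 bins. The lowest bin holds 339, 773 and 516 of the 12470 genes.

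The kinases named here that sorafenib blocks did not differ between the groups beyond their spread at the RNA level. Braf, a kinase that activates MEK, was at 1.06, 1.39, 1.01, 0.754 and 1.12 FPKM in DEN_CAF_SOR 1 to 5, against 0.972, 1.05, 0.544, 0.762 and 1.21 FPKM in DEN_CAF 1 to 5, log2 difference 0.12 (95% interval -0.13 to 0.37), and Araf had a log2 difference of -0.11 (95% interval -0.40 to 0.18). The ranges of the groups overlapped for both. Kdr, the main VEGF receptor of vessel cells, was at 2.89, 3.63, 1.86, 2.47 and 3.87 FPKM in DEN_CAF_SOR 1 to 5, against 3.11, 3.16, 2.56, 2.09 and 2.02 FPKM in DEN_CAF 1 to 5 (log2 difference 0.12, SE 0.20, 95% interval -0.29 to 0.54). Flt4, the VEGF receptor of lymphatic and sinusoidal vessel cells, had a log2 difference of 0.11 (95% interval -0.33 to 0.56) and Pdgfrb, the PDGF receptor of stellate cells and pericytes, one of -0.08 (95% interval -0.51 to 0.34). Flt1 and Kit were under the filter on low values in both groups, at 0.579 and 0.459 FPKM in DEN_CAF_SOR and at 0.571 and 0.467 FPKM in DEN_CAF. Of 14 target kinases 8 were tested, 5 with a positive difference, 0 at an unadjusted p under 0.05, and a median of 0.10.

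Ligands of these receptors did not differ at an unadjusted p under 0.05 either. Vegfa, the main vessel growth factor, was at 34.5 ± 5.07 FPKM in DEN_CAF_SOR and 38.8 ± 5.37 FPKM in DEN_CAF (SD, n = 5 each), log2 difference -0.17. Pdgfa, a PDGF receptor ligand, was at 4.15, 2.88, 3.45, 5.14 and 2.74 FPKM in DEN_CAF_SOR 1 to 5, against 3.52, 3.53, 7.897, 5.95 and 4.28 FPKM in DEN_CAF 1 to 5 (log2 difference -0.34, SE 0.22), and Vegfc, the ligand of Flt4, had a log2 difference of 0.31 (SE 0.19). Of 21 angiogenic signals 11 were tested, with 7 positive and a median of 0.07.

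Genes that report on the RAF, MEK and ERK pathway did not share a direction. Of 14 tested output genes 6 were positive and 8 negative (median -0.04), 0 of them at an unadjusted p under 0.05. Ccnd1, the cyclin that ERK signalling induces to start the cell cycle, was at 13.1, 11.2, 11.5, 5.23 and 5.69 FPKM in DEN_CAF_SOR 1 to 5, against 7.897, 11.95, 23.1, 13.02 and 14.3 FPKM in DEN_CAF 1 to 5. Epha2, an ephrin receptor induced by ERK, was at 4.002 ± 1.18 FPKM in DEN_CAF_SOR and 5.896 ± 2.16 FPKM in DEN_CAF (SD, n = 5 each), log2 difference -0.41. The ranges overlapped for both. Dusp5, a phosphatase that switches ERK off in the nucleus, had a log2 difference of -0.32 (SE 0.24). Dusp1, a phosphatase that removes the activating phosphates of JNK, p38 and ERK, is not on that list. It was at 14.5, 10.3, 33.3, 9.56 and 17.9 FPKM in DEN_CAF_SOR 1 to 5, against 3.68, 6.67, 7.86, 7.65 and 5.79 FPKM in DEN_CAF 1 to 5, and the groups did not overlap. Its log2 difference was 1.20 (SE 0.38, limma unadjusted p = 0.00543), and 0.94 without DEN_CAF_SOR 3.

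The immediate early genes, which growth factors and stress switch on within minutes, are the class in which Dusp1 is usually placed. Of 12 tested list members, 9 were positive with a median of 0.20, and 0 were at an unadjusted p under 0.05. Zfp36, which destabilises cytokine mRNAs, was at 34.9, 27.6, 26.6, 18.6 and 41.5 FPKM in DEN_CAF_SOR 1 to 5, against 21.6, 25.8, 18.9, 22.1 and 18.6 FPKM in DEN_CAF 1 to 5. Atf3, a stress-induced repressor, was at 2.696, 1.85, 4.92, 2.203 and 1.07 FPKM in DEN_CAF_SOR 1 to 5, against 1.78, 1.63, 4.21, 13.6 and 4.04 FPKM in DEN_CAF 1 to 5, and Klf6, a zinc finger factor, had a log2 difference of -0.35. The ranges of all 3 overlapped. In livers without caffeine Dusp1 stood at 3.44, 9.24, 11.9 and 3.59 FPKM in DEN_SOR 1 to 4, against 21.97, 11.8, 9.53, 4.44, 7.35 and 12.6 FPKM in DEN 1 to 6, and the test of the difference between the 2 settings gave 1.83 (SE 0.55, limma unadjusted p = 0.003396, adjusted p = 0.967).

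The promoters of Dusp1 and of 2 of the 6 plotted clock genes that were highest in DEN_CAF_SOR 3 are shown as examples, picked because their windows hold the motifs named next. Each runs from 250 bases before the transcription start to 50 after it (RefSeq, GRCm38.p6), 5′ to 3′ on the gene's strand. Capitals mark the E-box CACGTG, which the CLOCK and ARNTL pair binds, and the cAMP response element TGACGTCA. Both strands were searched, both motifs read the same on either, and the 2 do not overlap.
Dusp1 (chr17:26508423-26508722, minus strand): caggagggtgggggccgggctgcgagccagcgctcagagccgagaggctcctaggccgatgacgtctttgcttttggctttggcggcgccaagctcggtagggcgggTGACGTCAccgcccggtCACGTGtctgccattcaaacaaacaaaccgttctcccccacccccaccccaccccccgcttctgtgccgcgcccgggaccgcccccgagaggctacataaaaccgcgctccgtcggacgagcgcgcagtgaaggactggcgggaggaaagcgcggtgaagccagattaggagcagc
Per1 (chr11:69098699-69098998, plus strand): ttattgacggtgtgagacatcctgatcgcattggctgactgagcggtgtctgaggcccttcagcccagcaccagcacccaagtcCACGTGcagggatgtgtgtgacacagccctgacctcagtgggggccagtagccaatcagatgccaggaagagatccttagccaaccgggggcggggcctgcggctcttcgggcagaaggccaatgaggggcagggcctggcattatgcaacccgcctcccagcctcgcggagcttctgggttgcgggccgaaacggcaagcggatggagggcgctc
Ciart (chr3:95882179-95882478, minus strand): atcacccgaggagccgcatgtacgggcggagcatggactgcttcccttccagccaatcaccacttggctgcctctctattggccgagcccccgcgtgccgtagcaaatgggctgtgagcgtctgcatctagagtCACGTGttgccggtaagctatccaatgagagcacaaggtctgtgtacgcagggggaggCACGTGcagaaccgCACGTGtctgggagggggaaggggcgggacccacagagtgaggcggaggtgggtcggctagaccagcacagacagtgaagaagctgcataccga
Ciart held 3 E-boxes and Per1 held 1. Dusp1 held 1 E-box and 1 cAMP response element. Of 32851 promoters of this length in the table, 7.15% held an E-box and 1.79% a cAMP response element. The windows of Thrsp, Trib3, Fgfr4, Pdk1 and Dbp held neither. Those of Per2, Per3 and Usp2, the remaining clock genes highest in DEN_CAF_SOR 3, were not looked up singly.

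The 10 protein-coding genes with the smallest p in each direction are given as not called. Those higher in DEN_CAF_SOR were Slc16a12, Rilpl2, Thrsp, Cnmd, Rpl36a-ps1, Dusp1, Acyp2, Crim1, Pdk1 and Mosmo. The groups did not overlap for 6 of them (all genes 0.345%). Those lower were Fgfr4, Tnrc18, Wdr81, Zbtb7b, Mink1, Srek1, Rccd1, Lzts2, Uroc1 and Ssh3, without overlap for 5 (all genes 0.369%). Picking genes by small p in these same livers favours groups that do not overlap, so the lack of overlap adds no separate evidence. Rpl36a-ps1 has near-identical copies of a ribosomal protein gene elsewhere, so its reads are uncertain.

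Fgfr4 (ENSMUSG00000005320, GRCm39 chr13:55300453-55316572), the hepatocyte receptor for the gut hormone FGF15 that holds back bile acid synthesis, was at 18.6, 17.7, 16.3, 19.1 and 20.03 FPKM in DEN_CAF_SOR 1 to 5, against 23.2, 24.4, 27.3, 32.2 and 22.9 FPKM in DEN_CAF 1 to 5. All 5 DEN_CAF_SOR livers lay below all 5 DEN_CAF livers. The log2 difference was -0.47 (SE 0.13, limma unadjusted p = 0.00188), -0.43 without DEN_CAF_SOR 3, and DEN_SOR against DEN gave -0.36 in other livers. Of 22 tested bile acid genes 14 were positive (median 0.10), and Fgfr4 was the 1 member at an unadjusted p under 0.05.

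Thrsp (ENSMUSG00000035686, GRCm39 chr7:97062145-97066937), a regulator that carbohydrate and thyroid hormone induce together with fat synthesis, was at 56.8, 29.6, 282, 49.4 and 79.5 FPKM in DEN_CAF_SOR 1 to 5, against 26.4, 24.03, 17.4, 13.7 and 28.6 FPKM in DEN_CAF 1 to 5. The groups did not overlap, and DEN_CAF_SOR 3 was far above the rest. Its log2 difference was 1.71 (SE 0.50, limma unadjusted p = 0.00273), and 1.21 without DEN_CAF_SOR 3. DESeq2 called it, with a log2 difference of 2.17 and an adjusted p of 0.0499.

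Trib3 (ENSMUSG00000032715, GRCm39 chr2:152179342-152185952), a pseudokinase that ATF4 and CHOP induce under amino acid or endoplasmic reticulum stress, was at 9.297, 8.32, 10.02, 11.2 and 8.18 FPKM in DEN_CAF_SOR 1 to 5, against 12.8, 14.8, 12.02, 22.1 and 20.1 FPKM in DEN_CAF 1 to 5. All DEN_CAF_SOR livers were below all DEN_CAF livers (log2 difference -0.71, SE 0.24, limma unadjusted p = 0.00786). Without caffeine the difference had the other sign: 13.6, 11.4, 14.03 and 27.3 FPKM in DEN_SOR 1 to 4, against 8.39, 4.75, 5.31, 11.6, 4.94 and 5.47 FPKM in DEN 1 to 6, a log2 difference of 1.17. Those groups overlapped, with DEN 4 above DEN_SOR 2. The test of the difference between the 2 settings gave -1.88 (SE 0.34), the smallest p of all genes in that test (limma unadjusted p = 2.60e-05), and an adjusted p of 0.324, which did not pass. Over the other scalings, filters, tests and single-liver omissions the difference between the settings stayed between -2.15 and -1.63. The value -1.63 came without DEN_SOR 4, the DEN_SOR liver with the most Trib3, and the limma adjusted p was then 0.814. The adjusted p over these ran from 0.0022 to 0.814 and was under 0.05 without DEN 4 (limma, 0.0383) and by DESeq2 (0.0022).

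Pdk1, a kinase that HIF induces and that keeps pyruvate out of mitochondria, was at 5.11, 5.99, 8.15, 7.09 and 6.71 FPKM in DEN_CAF_SOR 1 to 5, against 4.11, 3.5997, 3.98, 3.704 and 4.26 FPKM in DEN_CAF 1 to 5, without overlap (log2 difference 0.62, SE 0.20). Slc16a12, a creatine carrier, was at 13.5, 16.5, 12.4, 11.9 and 12.3 FPKM in DEN_CAF_SOR 1 to 5, against 10.1, 9.303, 11.6, 9.57 and 7.02 FPKM in DEN_CAF 1 to 5, also without overlap (log2 difference 0.45, SE 0.13). Cnmd, chondromodulin, an inhibitor of vessel growth in cartilage, was at 4.498, 2.23, 4.05, 2.42 and 2.43 FPKM in DEN_CAF_SOR 1 to 5, against 1.59, 1.05, 0.883, 0.955 and 1.22 FPKM in DEN_CAF 1 to 5. It too was higher in every DEN_CAF_SOR liver, at a low level, with a log2 difference of 0.92 (SE 0.28). Mink1, a kinase upstream of JNK, was at 8.66, 8.79, 7.297, 7.93 and 9.74 FPKM in DEN_CAF_SOR 1 to 5, against 11.7, 12.2, 11.3, 12.2 and 10.1 FPKM in DEN_CAF 1 to 5, lower in every DEN_CAF_SOR liver (log2 difference -0.40, SE 0.12). Rilpl2, Tnrc18, Wdr81, Zbtb7b, Acyp2, Srek1, Rccd1, Crim1, Lzts2, Mosmo, Uroc1 and Ssh3 had log2 differences between -0.67 and 0.60. Among them Uroc1, urocanase of histidine breakdown, had the highest level, at 124 ± 25.3 FPKM in DEN_CAF_SOR and 172 ± 25.3 FPKM in DEN_CAF (SD, n = 5 each).

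**Figure D3:**
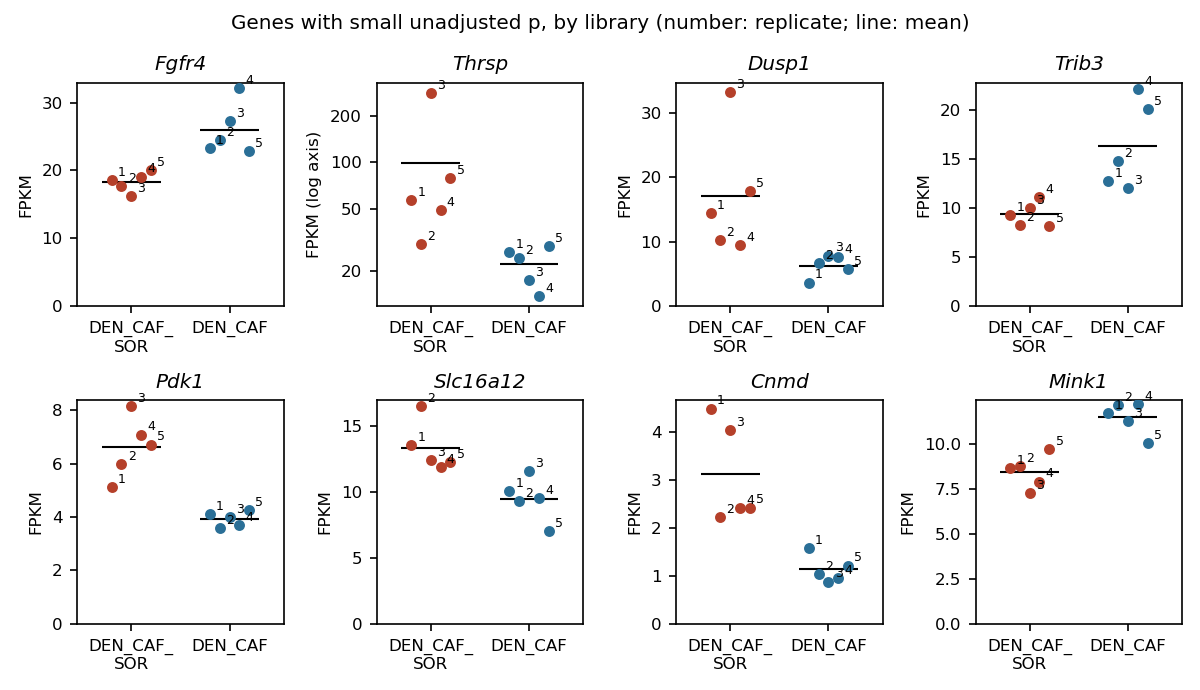
FPKM in each liver for 8 genes with a small unadjusted p, with DEN_CAF_SOR left of DEN_CAF; numbers give the replicate, lines the group mean, and the axis of Thrsp is logarithmic. The groups do not overlap for any of the 8, and DEN_CAF_SOR 3 is the highest liver for Thrsp, Dusp1 and Pdk1.

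DESeq2's other 2 calls rested on different patterns. The transcript 3930402G23Rik, of no known function, was at 0.418, 0.239, 0.544, 0.569 and 0.483 FPKM in DEN_CAF_SOR 1 to 5, against 3.63, 3.03, 0.572, 1.27 and 1.33 FPKM in DEN_CAF 1 to 5 (DESeq2 adjusted p = 0.0197). Sult2a2, a steroid sulfotransferase with close copies beside it, was at 1.34, 0.598, 0.656, 0.0762 and 0.477 FPKM in DEN_CAF_SOR 1 to 5, against 26.4, 1.69, 1.24, 0 and 179 FPKM in DEN_CAF 1 to 5 (DESeq2 adjusted p = 0.0499). Its DEN_CAF mean came from DEN_CAF 5 and DEN_CAF 1, while DEN_CAF 4 had 0 reads. Both were named after their values were seen.

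Enzymes and carriers that handle sorafenib were not distinguishable between the groups. Cyp3a11, the main mouse CYP3A enzyme and a PXR target, was at 1290.3, 1921, 909, 374 and 2809.5 FPKM in DEN_CAF_SOR 1 to 5, against 489.7, 1463, 682, 436 and 2129 FPKM in DEN_CAF 1 to 5 (log2 difference 0.48, SE 0.81, 95% interval -1.21 to 2.16). The livers of each group spread more than 4-fold, so that interval holds large changes either way. Ugt1a9, which adds glucuronic acid, was at 3.35, 3.76, 1.11, 1.03 and 8.32 FPKM in DEN_CAF_SOR 1 to 5, against 3.61, 4.69, 0.595, 0.317 and 5.34 FPKM in DEN_CAF 1 to 5 (log2 difference 0.25, SE 0.66). UGT1A genes share their last exons, so their reads can be split between them. Por, which passes electrons to all microsomal P450 enzymes, was at 58.5, 43.3, 178, 53.8 and 78.9 FPKM in DEN_CAF_SOR 1 to 5, against 63.9, 30.7, 24.3, 25.6 and 101 FPKM in DEN_CAF 1 to 5, with DEN_CAF_SOR 3 highest. Abcc4, an efflux pump of the basolateral membrane, had a log2 difference of -0.47 (SE 0.22, limma unadjusted p = 0.0437) at levels near 1 FPKM. Of 24 tested drug handling genes 16 were positive (median 0.13), 1 of them, Abcc4, at an unadjusted p under 0.05. CAR and PXR targets, the genes that foreign compounds induce, were positive in 19 of 27 (median 0.30), with Gstt1, a glutathione transferase, at 148, 141, 163, 119 and 219.6 FPKM in DEN_CAF_SOR 1 to 5, against 133, 114, 98.5, 88.6 and 117 FPKM in DEN_CAF 1 to 5 (log2 difference 0.50, SE 0.23). Of the Cyp2b members Cyp2b9 and Cyp2b13, which are also female-biased, had log2 differences of -1.12 and -1.0 with wide errors (SE 0.74 and 0.50).

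Genes of caffeine handling and caffeine's targets overlapped between the groups as well. Cyp1a2, the enzyme that starts caffeine breakdown, was at 217, 265, 110.1, 209 and 327 FPKM in DEN_CAF_SOR 1 to 5, against 146, 200.3, 154, 215 and 349.6 FPKM in DEN_CAF 1 to 5, log2 difference 0.07 (95% interval -1.32 to 1.46). Of 13 tested genes of AhR signalling and caffeine breakdown 7 were positive (median 0.05), among them Cyp2a5 at 0.42, while Nat1 and Arnt were at -0.35 and -0.22. Adora1, the 1 adenosine receptor gene above the filter, was at 7.53, 8.51, 7.02, 5.45 and 9.04 FPKM in DEN_CAF_SOR 1 to 5, against 6.87, 6.33, 9.06, 11.3 and 17.6 FPKM in DEN_CAF 1 to 5 (log2 difference -0.33, SE 0.26). Nt5e, which makes adenosine from AMP outside cells, was at 1.52, 1.11, 0.729, 0.598 and 0.877 FPKM in DEN_CAF_SOR 1 to 5, against 2.797, 0.997, 1.58, 0.819 and 8.4999 FPKM in DEN_CAF 1 to 5, with its highest level in DEN_CAF 5, and Adk, which removes adenosine, had a log2 difference of 0.43. Over 14 tested adenosine genes 9 were positive (median 0.06). Phosphodiesterases, which break down cyclic AMP and GMP, were positive in 4 of 10 (median -0.02). Pde4c was at 10.02, 10.9, 11.1, 13.9 and 15.99 FPKM in DEN_CAF_SOR 1 to 5, against 16.000, 18.7, 20.6, 24.6 and 13.4 FPKM in DEN_CAF 1 to 5 (log2 difference -0.55, SE 0.22, limma unadjusted p = 0.02399), and Pde4b and Pde4a were at 0.23 and -0.20.

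Stress response lists had medians between -0.22 and 0.19, beside 0.03 for all genes, of which 56.5% were positive. The integrated stress response, in which ATF4 raises genes of amino acid supply, was positive in 11 of 20 (median 0.11). Trib3 and Atf5, a relative of ATF4, were its 2 members at an unadjusted p under 0.05. Atf5 was at 273, 247, 165, 153 and 297 FPKM in DEN_CAF_SOR 1 to 5, against 307, 357, 266, 354 and 325 FPKM in DEN_CAF 1 to 5 (log2 difference -0.54, SE 0.21), with DEN_CAF_SOR 3 and 4 lowest, and -0.44 without DEN_CAF_SOR 3. Ddit3, which encodes the stress factor CHOP, was at 7.16, 7.47, 10.2, 12.04 and 4.06 FPKM in DEN_CAF_SOR 1 to 5, against 9.52, 8.55, 16.6, 35.1 and 6.45 FPKM in DEN_CAF 1 to 5, with DEN_CAF 4 highest. Unfolded protein response genes were positive in 13 of 23 (median 0.02), with Sel1l at -0.15, Edem1 at 0.21 and Herpud1 at 0.41. Heat shock genes were positive in 12 of 14 (median 0.19), with Cryab at 0.36, Hspa8 at 0.37 and Dnaja1 at 0.25. Within the livers not numbered 3 or 4 Herpud1 (-0.039), Hspa8 (-0.074) and Dnaja1 (-0.024) changed sign by more than the main standard error. Sel1l, Edem1 and Cryab did not.

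Ferroptosis genes, which set how far lipids are oxidised when cystine uptake fails, were positive in 18 of 22 (median 0.13), beside 56.5% of all genes. Slc40a1, the iron exporter, was at 15.2, 20.04, 13.3, 12.2 and 11.2 FPKM in DEN_CAF_SOR 1 to 5, against 10.8, 10.7, 10.3, 8.75 and 12.6 FPKM in DEN_CAF 1 to 5 (log2 difference 0.38, SE 0.24). Slc7a11, the cystine carrier that sorafenib is reported to block, was under the filter, at 0.0437 FPKM in DEN_CAF_SOR and 0.0545 FPKM in DEN_CAF. Nfe2l2, which encodes the oxidant response factor NRF2, had a log2 difference of -0.29 and Gch1, which makes an antioxidant cofactor, one of 0.39. NRF2 targets were positive in 15 of 27 (median 0.09). Osgin1, a growth inhibitor among them, was at 139, 157, 24.99, 81.6 and 115 FPKM in DEN_CAF_SOR 1 to 5, against 50.96, 166, 343, 322 and 183 FPKM in DEN_CAF 1 to 5, and Pgd had a log2 difference of -0.26. Iron genes were positive in 17 of 22 (median 0.10; Hjv -0.60), metallothionein and zinc genes in 7 of 9 (median 0.09; Mtf1 0.14) and autophagy genes in 18 of 26 (median 0.04).

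Targets of p53, which the carcinogen's DNA damage activates, were negative in 12 of 16 (median -0.22). Polk, a DNA polymerase that bypasses damage, had a log2 difference of -0.29 (SE 0.11) and Mdm2, which degrades p53, was at 9.05, 10.6, 8.93, 10.1 and 9.902 FPKM in DEN_CAF_SOR 1 to 5, against 10.2, 11.2, 16.9, 14.8 and 10.8 FPKM in DEN_CAF 1 to 5 (log2 difference -0.34, SE 0.15). These 2 of 16 were lower at an unadjusted p under 0.05, beside 1.72% of all genes. Bbc3, the death gene also called Puma, was at 11.1, 7.57, 0.941, 2.71 and 8.21 FPKM in DEN_CAF_SOR 1 to 5, against 6.86, 11.1, 7.74, 9.396 and 10.9 FPKM in DEN_CAF 1 to 5, lowest in DEN_CAF_SOR 3 and 4. Cdkn1a, the cell cycle inhibitor p21, was at 8.37, 11.6, 4.39, 5.18 and 17.1 FPKM in DEN_CAF_SOR 1 to 5, against 14.9, 12.2, 13.7, 10.9 and 10.2 FPKM in DEN_CAF 1 to 5 (log2 difference -0.50, SE 0.55). Without DEN_CAF_SOR 3 the median of the list was -0.14, and within the livers not numbered 3 or 4 it was -0.02, with 6 of 16 positive. BCL2 family genes were negative in 10 of 14 (median -0.03; Bax -0.35, Bnip3l 0.18).

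Markers of liver tumours and of dividing cells did not separate the groups. Afp, the fetal serum protein used as a tumour marker, was at 0.354, 0.736, 2.02, 4.04 and 0.472 FPKM in DEN_CAF_SOR 1 to 5, against 0.502, 0.624, 0.854, 0.856 and 0.365 FPKM in DEN_CAF 1 to 5 (log2 difference 0.44, SE 0.98). H19, an imprinted fetal transcript, was at 82.6, 14.7, 6.98, 22.4 and 6.803 FPKM in DEN_CAF_SOR 1 to 5, against 12.7, 38.2, 26.7, 15.8 and 13.3 FPKM in DEN_CAF 1 to 5, with DEN_CAF_SOR 1 highest. For Mki67, present in dividing cells, the values were 1.28, 0.907, 0.306, 1.07 and 0.328 FPKM in DEN_CAF_SOR 1 to 5, against 0.119, 0.316, 1.01, 0.679 and 2.22 FPKM in DEN_CAF 1 to 5. The ranges overlapped for all 3. Tumour and oncofetal genes were positive in 6 of 16 (median -0.05; Ly6d -1.11) and proliferation genes in 8 of 18 (median -0.0038; Mcm7 -0.24).

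Fat synthesis was the metabolic path with most members at a small p. Of 22 tested genes 15 were positive (median 0.17), 3 of them higher at an unadjusted p under 0.05, beside 0.994% of all genes. Scd1, which desaturates stearate, was at 1049.8, 824, 399, 365 and 689.9 FPKM in DEN_CAF_SOR 1 to 5, against 128, 254, 415, 233 and 657 FPKM in DEN_CAF 1 to 5 (log2 difference 1.08, SE 0.41). Pklr, the liver pyruvate kinase, was at 20.8, 16.9, 59.8, 26.7 and 15.4 FPKM in DEN_CAF_SOR 1 to 5, against 18.1, 16.9, 14.2, 14.1 and 11.8 FPKM in DEN_CAF 1 to 5 (log2 difference 0.69, SE 0.31). The third was Thrsp. Fasn, fatty acid synthase itself, was at 30.8, 16.5, 56.2, 19.5 and 16.8 FPKM in DEN_CAF_SOR 1 to 5, against 19.2, 18.7, 18.2, 16.7 and 13.3 FPKM in DEN_CAF 1 to 5 (log2 difference 0.52, SE 0.36), and Srebf1, which encodes the factor that drives the path, had a log2 difference of -0.06. The ranges overlapped for Scd1, Pklr, Fasn and Srebf1, and DEN_CAF_SOR 3 was the highest liver for Pklr and Fasn. Without DEN_CAF_SOR 3 15 of 22 members were positive as well (median 0.22). On leaving out 1 of the 10 livers the median ran from 0.04 to 0.25, with 14 to 17 members positive. The members higher at an unadjusted p under 0.05 were then 2 to 3.

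Without caffeine the same list ran the other way. In DEN_SOR against DEN 19 of 22 differences were negative (median -0.40) and 8 were lower at an unadjusted p under 0.05, against the 3.3% of all genes. On leaving out 1 of those 10 livers 3 to 9 were lower, with 3 and a median of -0.25 without DEN 2. Scd1 was at 113, 283, 269 and 270.2 FPKM in DEN_SOR 1 to 4, against 364, 970.0, 433, 654, 674 and 609.5 FPKM in DEN 1 to 6. The difference between the 2 settings was 2.49 for Scd1 (SE 0.58, limma unadjusted p = 0.0003996, adjusted p = 0.956). For 5 of 22 members it was more positive with caffeine at an unadjusted p under 0.05, beside 1.96% of all genes, and 4 to 9 on leaving out any 1 of the 20 livers. By limma no member passed after adjustment over all genes, and DESeq2 called Scd1 (adjusted p = 0.0281).

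Genes of liver vessel cells leaned opposite ways in the 2 settings. With caffeine 21 of 23 tested endothelial genes were positive by small amounts (median 0.13), 0 at an unadjusted p under 0.05, while DEN_SOR against DEN gave 23 of 23 negative (median -0.56) and 12 lower at an unadjusted p under 0.05 (all genes 3.3%). In the test of the difference 12 of 23 were more positive with caffeine at an unadjusted p under 0.05 (all genes 1.96%), 5 when reads were scaled by library totals without mitochondrial genes, and 0 passed after adjustment. Pecam1, an adhesion protein between vessel cells, was at 2.84, 1.86, 1.58, 2.304 and 1.99 FPKM in DEN_CAF_SOR 1 to 5, against 1.64, 2.02, 1.51, 1.95 and 1.99 FPKM in DEN_CAF 1 to 5. Without caffeine Pecam1 was at 0.855, 1.25, 1.62 and 0.772 FPKM in DEN_SOR 1 to 4, against 1.75, 2.64, 2.44, 5.54, 2.72 and 1.95 FPKM in DEN 1 to 6, and the difference between the settings was 0.94 (SE 0.26, limma unadjusted p = 0.00197).

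Kdr without caffeine was at 0.559, 2.2999, 2.09 and 1.28 FPKM in DEN_SOR 1 to 4, against 2.95, 4.14, 2.41, 3.91, 4.54 and 2.69 FPKM in DEN 1 to 6, so that DEN_SOR 1 was far below the rest. The difference between the settings was 0.96 for Kdr (SE 0.29), 1.29 for Plvap, the diaphragm protein of vessel pores (SE 0.40), and 1.07 for Esam, a junction protein (SE 0.32). Lyve1, a scavenger receptor of sinusoids, had a log2 difference of 0.42 with caffeine (SE 0.27). Leaving out DEN_SOR 1 brought the median of DEN_SOR against DEN to -0.26, the members lower at an unadjusted p under 0.05 to 6, and those past that threshold in the test of the difference to 5. Over all 20 single-liver omissions the last count ran from 5 to 16 (15 without DEN 4), and each of the 23 differences between the settings stayed positive. In bulk liver fewer vessel cells and less RNA per vessel cell cannot be told apart.

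**Figure D4:**
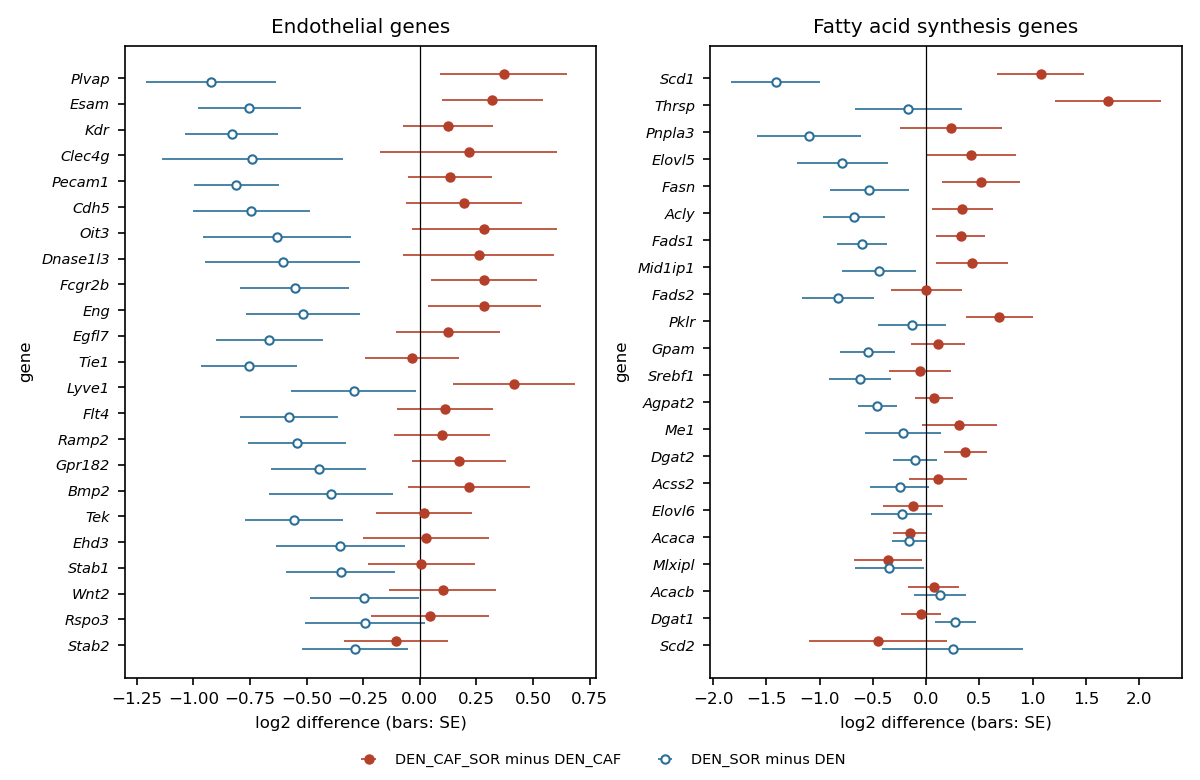
Log2 difference of each tested endothelial gene (left) and fatty acid synthesis gene (right) with its standard error, with caffeine (filled, DEN_CAF_SOR minus DEN_CAF) and without (open, DEN_SOR minus DEN). The filled points of 21 of 23 endothelial genes lie above 0 and the open points of 23 of 23 below it.

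Matrix and stellate cell genes were positive in 20 of 27 (median 0.19) with caffeine and negative in 24 of 27 without it (median -0.30). On leaving out 1 liver the median with caffeine ran from 0.05 to 0.32, lowest without DEN_CAF_SOR 1 and DEN_CAF_SOR 4, and the median without caffeine from -0.43 to -0.05, nearest to 0 without DEN_SOR 1. Rgs5, a pericyte gene, was at 14.8, 17.2, 13.3, 19.1 and 15.3 FPKM in DEN_CAF_SOR 1 to 5, against 13.6, 11.3, 9.67, 8.604 and 7.39 FPKM in DEN_CAF 1 to 5 (log2 difference 0.63, SE 0.31). Summed Kupffer cell markers ran from 190.9 to 466 FPKM in DEN_CAF_SOR and from 144 to 385 FPKM in DEN_CAF, and summed red cell and platelet genes from 333 to 1042 FPKM in DEN_CAF_SOR and from 294 to 566 FPKM in DEN_CAF. Their part in the other differences was not tested.

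Kupffer cells, the macrophages of the liver sinusoids, had 13 of 14 tested markers positive (median 0.25, and 0.01 to 0.48 on leaving out 1 of the 10 livers). Timd4, a receptor for dying cells on resident Kupffer cells, was at 5.802, 1.85, 3.26, 4.602 and 2.604 FPKM in DEN_CAF_SOR 1 to 5, against 0.824, 1.67, 1.87, 2.11 and 3.71 FPKM in DEN_CAF 1 to 5 (log2 difference 0.60, SE 0.26, limma unadjusted p = 0.0298). Monocyte and macrophage genes were positive in 5 of 8 (median 0.12), with Lyz2, lysozyme, at a log2 difference of 0.64 (SE 0.46). Neutrophil genes had 4 of 6 (median 0.16; Ly6g 0.36), T and NK cell genes 2 of 5 (median -0.06; Trbc1 -0.29), and B and plasma cell genes 5 of 8 (median 0.03; Ighm 0.32). MHC class II genes, which present peptides to helper T cells, were positive in 5 of 5 (median 0.36; H2-Aa 0.39). Class I genes had 5 of 12 (median -0.03; Nlrc5 -0.19), chemokines and cytokines 14 of 17 (median 0.25; Ccl6 0.56) and acute phase genes 16 of 24 (median 0.08; Itih3 -0.52). Of all these lists Timd4 was the 1 gene at an unadjusted p under 0.05.

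Interferon response genes, the antiviral program, were negative in 30 of 34 (median -0.16), and that direction was not seen without DEN_CAF_SOR 3. Mx2, an antiviral GTPase, was at 13.9, 21.1, 6.27, 9.18 and 19.5 FPKM in DEN_CAF_SOR 1 to 5, against 19.1, 20.7, 28.2, 23.1 and 14.7 FPKM in DEN_CAF 1 to 5 (log2 difference -0.65, SE 0.31, limma unadjusted p = 0.0464), lowest in DEN_CAF_SOR 3. Without it the list had 18 of 34 positive and a median of 0.02. Livers numbered 3 and 4 had the highest mitochondrial share of reads in both groups. Within them 1 of 32 were positive (median -0.65), and within the others 25 of 34 (median 0.14).

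Short transcripts of the translation and respiration machinery had positive differences together. Ribosomal protein genes were positive in 34 of 35 (median 0.23) and nuclear genes of the respiratory chain in 34 of 34 (median 0.20), with Rps2 the 1 gene at an unadjusted p under 0.05. Rps2 was at 10.04, 6.15, 9.92, 7.41 and 9.53 FPKM in DEN_CAF_SOR 1 to 5, against 4.999, 5.96, 5.28, 4.84 and 8.38 FPKM in DEN_CAF 1 to 5 (log2 difference 0.48, SE 0.18), and has processed copies that can share its reads. Sdhb, the iron and sulphur subunit of complex II, was at 81.1, 80.4, 124, 125 and 109.6 FPKM in DEN_CAF_SOR 1 to 5, against 79.1, 79.1, 72.2, 75.5 and 91.3 FPKM in DEN_CAF 1 to 5 (log2 difference 0.36, SE 0.18). Within the livers numbered 3 and 4 the medians were 0.56 and 0.56, and within the others -0.03 (11 of 35 positive) and -0.09 (6 of 34 positive). The positive direction was thus seen within livers 3 and 4 and not within the others.

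Genes of the mitochondrial genome took 5.65, 8.07, 15.7, 18.7 and 7.94% of assigned reads in DEN_CAF_SOR 1 to 5, against 7.03, 9.81, 23.6, 23.1 and 7.82% in DEN_CAF 1 to 5. Livers 3 and 4 stood above the other 3 in both groups. Among livers without caffeine the highest shares were 34.8% in DEN_SOR 4 and 33.4% in DEN 3. Their part in the results that use DEN_SOR and DEN was not tested. The mean share was 11.2 ± 5.66% in DEN_CAF_SOR and 14.3 ± 8.34% in DEN_CAF (SD, n = 5 each), a difference of -3.05 points (exact permutation test, two-sided p = 0.532, where the smallest possible is 0.00794). The encoded genes were negative in 12 of 13 (median -0.21), with mt-Nd4l at -0.83, and without DEN_CAF 3 in 7 of 13. On leaving out 1 of the 10 livers 0 to 8 of them were positive, and the median ran from -0.50 to 0.03. Factors that express this genome, such as the termination factor Mterf2 (-0.36), were positive in 11 of 19 (median 0.01). Gene length moved with the difference as well: the median log2 difference was between 0.06 and 0.08 in the 3 deciles of genes with the shortest models and -0.01 in the decile with the longest. Nuclear RNAs that stay unspliced or unexported were negative in 3 of 4 (median -0.40). Neat1, the scaffold of nuclear paraspeckles, was at 56.7, 34.1, 36.7, 59.8 and 35.6 FPKM in DEN_CAF_SOR 1 to 5, against 63.04, 93.7, 114, 113 and 40.9 FPKM in DEN_CAF 1 to 5, and the summed level of the 6 listed RNAs ran from 85.0 to 109 FPKM in DEN_CAF_SOR and from 111 to 203 FPKM in DEN_CAF, without overlap. The part of these values in the list medians was not tested.

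Sex-biased genes of the liver, which the rhythm of growth hormone sets, spread widely between livers of 1 group. Male-biased genes were positive in 24 of 26 (median 0.43, and 0.16 to 0.64 on leaving out 1 of the 10 livers) and female-biased genes negative in 19 of 29 (median -0.14). Mup1, a male-biased major urinary protein, was at 9.78, 176, 2.49, 34.99 and 119 FPKM in DEN_CAF_SOR 1 to 5, against 6.62, 17.6, 8.66, 16.9 and 4.99 FPKM in DEN_CAF 1 to 5 (log2 difference 1.52, SE 1.23). The Mup genes are nearly identical, so their reads may be split among them. Sult2a5, a female-biased sulfotransferase, was at 0.522, 0.466, 0.207, 0.05401 and 0.225 FPKM in DEN_CAF_SOR 1 to 5, against 11.6, 0.434, 3.16, 0.357 and 31.8 FPKM in DEN_CAF 1 to 5 (log2 difference -1.98, SE 0.74), and its DEN_CAF mean came from single livers. Sult2a1, named after its values were seen, was at 5.89, 0.912, 6.25, 1.44 and 1.91 FPKM in DEN_CAF_SOR 1 to 5, against 101, 2.84, 6.81, 0.314 and 684 FPKM in DEN_CAF 1 to 5. Bcl6, a repressor that growth hormone shuts down and that is higher in males, was at 1.39, 1.63, 0.9595, 1.64 and 2.17 FPKM in DEN_CAF_SOR 1 to 5, against 3.44, 8.44, 2.996, 7.701 and 1.52 FPKM in DEN_CAF 1 to 5 (log2 difference -1.03, SE 0.48, limma unadjusted p = 0.0454). Growth hormone and IGF genes as a list were positive in 12 of 17 (median 0.14). Without DEN_CAF_SOR 3 the median of female-biased genes was -0.27, and it ran from -0.27 to 0.17 on leaving out 1 of the 10 livers.

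Without caffeine the medians had the other sign, with DEN_SOR 1 behind much of the count. Female-biased genes had a median of 1.33 in DEN_SOR against DEN, with 14 higher at an unadjusted p under 0.05 (all genes 2.9%), and 3 (median 0.76) without DEN_SOR 1. Male-biased genes had a median of -0.64, and -0.03 without DEN_SOR 1. In the test of the difference 9 of 29 female-biased genes were more negative with caffeine at an unadjusted p under 0.05 (all genes 2.18%), and 0 passed after adjustment by limma. DESeq2 called Sult2a1, Sult2a2 and Sult2a5 there, neighbours with close sequence that DEN_CAF 1 and DEN_CAF 5 held at high levels.

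The clock list also leaned differently without caffeine, with a median of 0.52 and 12 of 21 members at an unadjusted p under 0.05 in DEN_SOR against DEN, 9 of them higher (all genes 6.2%, and 2.9% higher). On leaving out 1 of those 10 livers the members higher ran from 5, without DEN_SOR 1, to 11. Usp2, a deubiquitinase under clock control, was at 0.422, 0.377, 17.9, 3.07 and 0.453 FPKM in DEN_CAF_SOR 1 to 5, against 0.402, 0.3301, 0.552, 0.343 and 0.687 FPKM in DEN_CAF 1 to 5. For 6 of 21 clock genes the 2 settings differed at an unadjusted p under 0.05 (all genes 4.14%), and 0 passed after adjustment. Over the 20 single-liver omissions 0 to 3 clock genes were more positive with caffeine at that threshold and 2 to 6 more negative. Besides Trib3, the smallest p in that test fell to Atg14, which starts autophagosomes, with -0.34 in DEN_CAF_SOR against DEN_CAF and 0.65 in DEN_SOR against DEN (difference -0.99, SE 0.19, limma adjusted p = 0.3898, DESeq2 adjusted p = 0.0115). Mterf2 gave 0.59 without caffeine and a difference of -0.95 (SE 0.21, DESeq2 adjusted p = 0.0185).

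Leaving out DEN 4 left the sign of these list medians as it was in DEN_SOR against DEN. Over all genes, both directions together, 836 were then at an unadjusted p under 0.05, against 773 with DEN 4. Against the other DEN livers the fatty acid synthesis list had 18 of 21 negative and 4 lower at an unadjusted p under 0.05 (median -0.43), and the endothelial list 23 of 23 negative and 17 lower (median -0.57). Female-biased genes had 12 higher (median 1.39), male-biased genes had 2 lower (median -0.88), clock genes had 6 higher (median 0.47), and matrix and stellate genes had 22 of 27 negative (median -0.21). The difference between the 2 settings was then 2.46 (SE 0.60) for Scd1, 2.04 (SE 0.52) for Dusp1, 0.78 (SE 0.19) for Pecam1 and 0.92 (SE 0.30) for Kdr. It was 1.17 (SE 0.39) for Plvap, 0.93 (SE 0.29) for Esam, -0.94 (SE 0.19) for Atg14 and -0.96 (SE 0.22) for Mterf2. Of these genes none passed after limma's adjustment, while Trib3 did.

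The remaining lists, of metabolic paths and of cell types, had medians between -0.10 and 0.62. Zones of the lobule were positive in 17 of 20 for the portal side (median 0.31; Otc, a urea cycle enzyme, 0.58) and in 12 of 22 for the central side (median 0.04; Tbx3 -0.39). Glucose output and glycogen genes had 14 of 19 positive (median 0.27, and 0.08 without DEN_CAF_SOR 3; Irs2 -0.54). Amino acid breakdown had 23 of 31 (median 0.14; Gpt2 0.47), fatty acid oxidation 17 of 32 (median 0.04; Ppargc1a 0.39) and cholesterol synthesis 10 of 25 (median -0.05; Hmgcs1 -0.41). Fat storage genes under PPARG had 6 of 10 (median 0.12; Plin4 0.56). Hepatocyte identity genes were positive in 17 of 25 (median 0.08; Apoa1 0.52), bile duct genes in 3 of 12 (median -0.10; Ddit4l -0.35) and red cell and platelet genes in 6 of 6 (median 0.62; Hba-a1 0.83, with near-identical copies). Few genes were tested of fat cells (2, median 0.45; Fabp4 0.38), of mesothelium (2, median 0.10; Msln 0.12) and of exocrine pancreas (Cela1 0.31), and 0 of muscle. No member of these lists was at an unadjusted p under 0.05. The mean of a list had the other sign than its median for adenosine, NRF2, integrated stress, class I, acute phase and fatty acid oxidation genes.

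Glycolysis and hypoxia genes were positive in 14 of 20 (median 0.10). Of these, 2 genes, Pdk1 and Gapdh, were higher in every DEN_CAF_SOR liver than in any DEN_CAF liver (all genes 0.345%). Gapdh, a glycolytic enzyme often used as a loading control, is named after its values were seen. It was at 43.6, 27.5, 11.3, 4.73 and 63.1 FPKM in DEN_CAF_SOR 1 to 5, against 2.86, 2.73, 3.52, 3.96 and 2.48 FPKM in DEN_CAF 1 to 5 (log2 difference 2.46, SE 0.89, limma unadjusted p = 0.0121). In livers without caffeine it was at 3.78, 5.26, 62.9 and 67.5 FPKM in DEN_SOR 1 to 4, against 3.22, 53.1, 3.35, 4.71, 48.2 and 3.39 FPKM in DEN 1 to 6, so that levels near 3 and levels over 40 occurred in both of those groups. Gapdh has many processed copies in the mouse genome, so how its reads were assigned is uncertain.

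**Figure D5:**
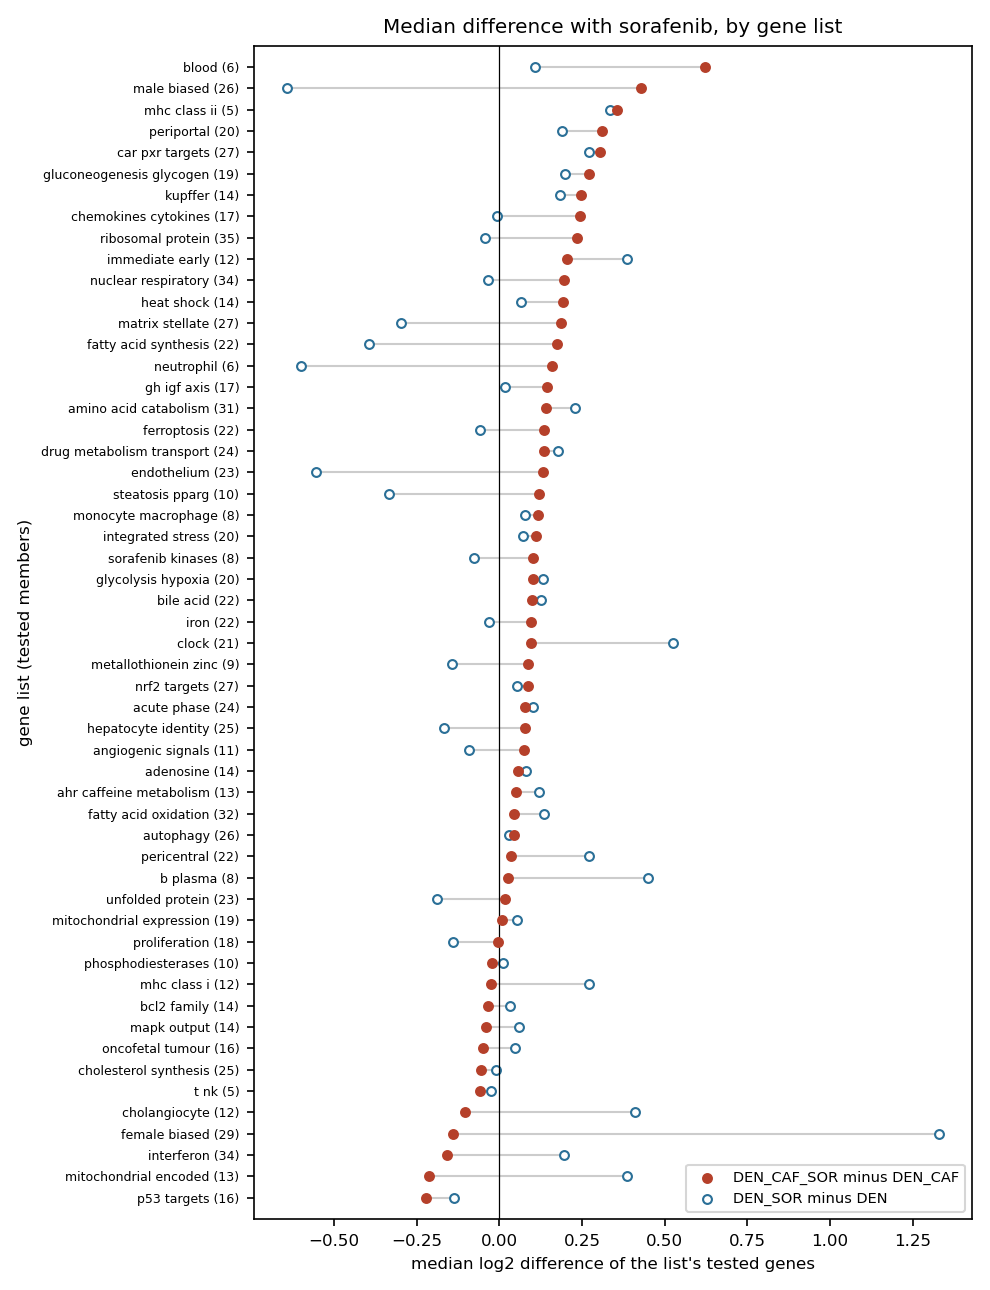
Median log2 difference over the tested members of each gene list with 5 or more tested, with caffeine (filled, DEN_CAF_SOR minus DEN_CAF) and without (open, DEN_SOR minus DEN). Filled medians lie between -0.22 and 0.62, and open ones between -0.64 and 1.33.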

How the data were processed

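RNA was sequenced from livers of 25 mice, and 20 carcinogen-exposed livers entered the fit. The 5 Untreated livers were left out, since 3 of them show female expression. The authors aligned reads with HISAT2 2.0.5 to GRCm39 and counted them with featureCounts 1.5.0-p3, as the submitters' processing notes record. Neither the strand setting nor the annotation release was given in the sources used, so reads of overlapping and antisense genes cannot be told apart. The deposited signal values, named FPKM per the labels, proved to be read counts divided by 1 size factor per library, set separately in each table. Whole reads were recovered from them (tolerance 0.01 reads, 100% of values whole), then scaled together by TMM and divided by gene length. Genes missing from any of the 4 tables (3588) were not tested.

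limma 3.58.1 (R 4.3.3) was fitted to log2(FPKM + 1) with 1 coefficient per group, for genes reaching 1 FPKM in 4 or more libraries, with two-sided tests and Benjamini-Hochberg adjustment at 0.05. A fold change on this scale understates that of low genes. edgeR 4.0.16 and DESeq2 1.42.0 were run on the recovered reads as alternatives and called 0 and 3 genes. The steps were tested on simulated data, where 7 of 11563 unchanged genes were called. Genes were named by rule: called genes, the 10 smallest p in each direction among protein-coding genes with a mean FPKM of 1 or more, the 3 smallest p of each drug or stress list and 1 of each other list, and a set always named; 1 gene under this rule is not reported here. Genes outside the rule (clock genes other than Usp2, Scd1, Pklr, Fasn, Srebf1, Pecam1, Gapdh, Sult2a1, Sult2a2, 3930402G23Rik, Ddx3y and genes called only in an alternative) were chosen after their values were seen. The members and lists were chosen with earlier results of these data known. Replicate numbers were not taken as pairs, since not every same-numbered set of livers deviated together (correlations over 0.1 in 3 of 5). No libraries were duplicates: counts of 2 livers of a group differed by 19.8 to 215 times the sampling noise (chi-square per degree of freedom).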

Additional observations from a re-analysis of the deposited data

Results flagged for a closer look

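In groups of 5 livers, a value was singled out where its gap to the next exceeded 0.710 of the group's range. Gap and range were taken on log2(value + 1), while levels are printed as FPKM. Chance singles out about 1 in 20 such groups, and 7 of 238 (2.94%) were found. Ly6g, a neutrophil surface protein, was at 0.423 FPKM in DEN_CAF_SOR 2, with 0.840 to 1.03 FPKM in the other 4. Nat1, an acetyltransferase that acts on caffeine products, was at 0.551 FPKM in DEN_CAF_SOR 1, with 1.27 to 1.60 FPKM in the others. Fabp4, the fatty acid carrier of fat cells, macrophages and vessel cells, was at 14.1 FPKM in DEN_CAF_SOR 4, with 2.62 to 4.03 FPKM in the others. DEN_CAF_SOR 3 gave 2 of the 7: Hjv, a hepatocyte co-receptor of iron sensing, was at 25.5 FPKM there (79.7 to 91.4 FPKM in the others), and Wdr81 at 3.31 FPKM (7.08 to 9.32 FPKM). In DEN_CAF, Epha2 was at 2.13 FPKM in DEN_CAF 1 (6.26 to 7.42 FPKM in the others). Ly6d, a surface protein often raised in liver tumours, was at 32.0 FPKM in DEN_CAF 5 (10.7 to 14.6 FPKM in the others).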

How the results depend on the processing

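limma and edgeR called 0 genes for DEN_CAF_SOR against DEN_CAF in every setting run, and DESeq2 called 3. For DEN_SOR against DEN DESeq2 called 28 genes and single-liver omissions gave 0 to 4 (Cyp2c69 without DEN_SOR 2, Fam167b and Gm6493 without DEN_SOR 3, and Crybg1, Mknk2, Sorbs3 and Cyp4a10 without DEN 1). For the difference between the 2 settings DESeq2 called 8 and omissions gave 0 to 1 (Cyp2c69 without DEN_SOR 2, Trib3 without DEN 4). Fitting the replicate number as a block gave 1 (Trib3, adjusted p just under 0.05) and changed no other call; numbers were not taken as pairs, since deviations of same-numbered livers correlated at -0.20, 0.12, -0.02, 0.42 and 0.16. The genes with an unadjusted p under 0.05 for DEN_CAF_SOR against DEN_CAF ran from 193 to 475 over omissions, and were 699 with no filter on low values, 162 with an FPKM minimum of 5, 536 with livers 3 and 4 as a batch, 518 from the 10 livers alone, and 2151 and 430 within livers 3 and 4 and within the others. The mitochondrial share differed by -4.92 to -0.722 points over omissions. Of 3223 values for 118 named genes 3202 kept their side of the threshold without a sign change that moved them by more than the main standard error. Thrsp passed by DESeq2 (2.17). Smaller sign changes are not listed, such as H19 at -0.18 in the main fit and 0.29 by edgeR and by DESeq2. Sign changes beyond that error, none called, were within livers 3 and 4 Cela1 (-0.055), Ighm (-0.11), Kdr (-0.076), Msln (-0.90) and Mup1 (-0.23). Within the others they were Adk (-0.029), Bnip3l (-0.0084), Ccl6 (-0.17), Dnaja1 (-0.024), Fabp4 (-0.15), Herpud1 (-0.039) and Hspa8 (-0.0740). Also within the others were Nfe2l2 (0.13), Osgin1 (0.21), Pdgfrb (0.19), Por (-0.016), Ppargc1a (-0.058) and Tbx3 (0.018). Without DEN_CAF_SOR 3 Pdgfrb changed sign by edgeR (0.15) and DESeq2 (0.15). The cause was not tested. The other scalings moved the median of all genes by under 0.1 (log2). Changes of 1.5-fold were mostly below what 5 livers a group recovered in simulated reads.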
